A study of Notophthalmus viridescens with 3 samples.

Results

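The miR-99 and miR-100, miR-125 and miR-10 families were read by 11 probes among the 1365 miRNA probes of an array hybridized with RNA from the adult newt heart. Members were the probes whose reporter name, in any species, was one of 10 names from miR-99 to miR-125c, and 9 of these names had a probe. They comprise 3 probes of the miR-99 and miR-100 family (hsa-miR-99a, hsa-miR-99b and hsa-miR-100), 4 of the miR-125 family (xtr-miR-125a, hsa-miR-125a-5p, hsa-miR-125b and dre-miR-125c) and 4 of the miR-10 family (hsa-miR-10a, dre-miR-10a, hsa-miR-10b and xtr-miR-10b). The prefixes hsa, xtr and dre stand for human, the frog Xenopus tropicalis and zebrafish. The name miR-99 has no probe of its own, but the frog and zebrafish miR-99 are listed on the hsa-miR-99a probe.

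MicroRNAs are short RNAs that pair with messenger RNAs, mainly through the seed near their 5′ end, and lower their translation or stability. The miR-125 family holds the vertebrate relatives of lin-4 of Caenorhabditis elegans, a regulator of developmental timing, and in vertebrates miR-99, miR-100 and miR-125 are encoded near let-7 genes with which they can share a primary transcript. The miR-10 genes lie inside the Hox clusters, which pattern the body axis, and miR-10 resembles miR-99 and miR-100 in sequence.

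The study followed the whole heart of the red-spotted newt, Notophthalmus viridescens, a salamander that regenerates heart muscle, with 1 uninjured sample, 1 sample 7 days post injury (dpi) and 1 sample 21 dpi. All 3 samples came from adults. Strain and sex are not given in the labels, nor is the number of animals behind each sample, and the injury is described only by reference to an earlier study. The labels list 2.6, 5.1 and 3.3 µg of total RNA sent for the uninjured, 7 dpi and 21 dpi samples, with 0.5 µg entering each assay. With 1 sample per group no test across samples was possible. Each ± below is the standard error over the 3 spots of a probe on 1 array, or over both arrays' spots for a difference, so it measures technical spread only. In whole-heart RNA, fewer cells of a type and less RNA per cell cannot be told apart.

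The sequences are shown because they decide which of these probes can tell related miRNAs apart. The newt's own miRNA sequences were not used here. Each line gives the target RNA listed for the probe in the deposited files, 5′ to 3′, with the seed (bases 2 to 8) in capitals.
xtr-miR-125a: uCCCUGAGacccuuaaccugug
hsa-miR-125a-5p: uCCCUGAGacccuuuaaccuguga
hsa-miR-125b: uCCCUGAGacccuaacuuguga
dre-miR-125c: uCCCUGAGacccuaacucguga
hsa-miR-99a: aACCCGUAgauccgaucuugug
hsa-miR-99b: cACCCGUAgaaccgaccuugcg
hsa-miR-100: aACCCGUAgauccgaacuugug
hsa-miR-10a: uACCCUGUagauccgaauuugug
dre-miR-10a: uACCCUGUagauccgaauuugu
hsa-miR-10b: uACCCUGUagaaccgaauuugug
xtr-miR-10b: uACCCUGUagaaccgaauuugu

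The 11 targets carry 3 seeds, 1 for each family. CCCUGAG is shared by the 4 miR-125 targets, ACCCGUA by the 3 miR-99 and miR-100 targets and ACCCUGU by the 4 miR-10 targets. Outside the members, these seeds occurred on the array in hsa-miR-4319 (the miR-125 seed) and in dre-miR-10c, dre-miR-10d and xtr-miR-10c (the miR-10 seed), none of which was detected on any array. Several members differ by 1 base. Counting positions from 1 at the 5′ end, dre-miR-125c differs from hsa-miR-125b by C18U, hsa-miR-100 from hsa-miR-99a by A16U, and hsa-miR-10a from hsa-miR-10b by U12A. The probe of dre-miR-10a targets the human sequence shortened by 1 base, and hsa-miR-99b differs from both hsa-miR-99a and hsa-miR-100 at 4 positions. The hsa-miR-125a-5p target is 24 bases long, 2 longer than the xtr-miR-125a target, at an edit distance of 2. Probes this alike can capture each other's target, so a signal below belongs to a probe and not with certainty to 1 miRNA.

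A probe was taken as detected where its median spot was brighter than 95 percent of the 587 spots left empty on that array, a level that lay at an intensity of 73.8 on the uninjured array, 77.5 at 7 dpi and 103 at 21 dpi. By this rule 6 of the 11 probes were detected, each on all 3 arrays: all 4 miR-125 probes, hsa-miR-99a and hsa-miR-100. The other 5, hsa-miR-99b and the 4 miR-10 probes, were not detected on any array. Of all 1365 probes, 225, 220 and 180 were detected on the uninjured, 7 dpi and 21 dpi arrays, and 169 on all 3.

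**Figure D1:**
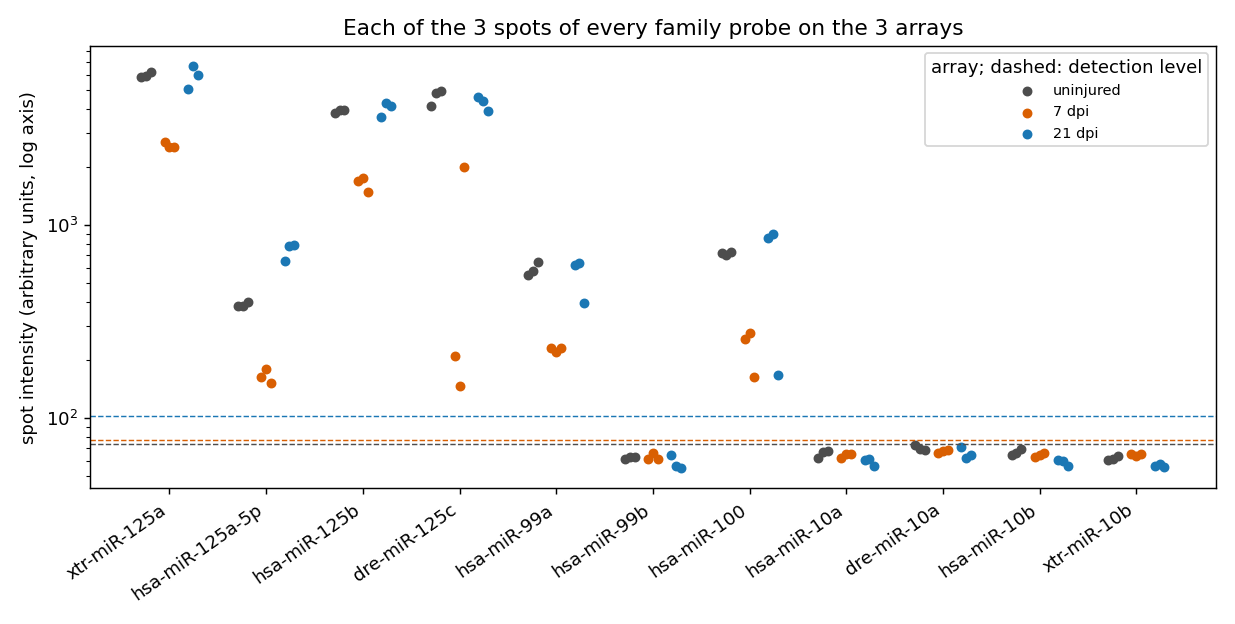
Intensity of each spot (log axis, arbitrary units) for the 11 family probes, with 3 spots per probe on the uninjured, 7 dpi and 21 dpi arrays and the detection level of each array as a dashed line. Probes of miR-125, miR-99a and miR-100 lie above the lines throughout, while the spots of miR-99b and the miR-10 probes lie between 55.0 and 72.6; at 7 dpi 2 of the 3 dre-miR-125c spots and at 21 dpi 1 hsa-miR-100 spot stand far below their partners.

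The 15 spots of the 5 undetected probes spanned 60.5 to 72.6 on the uninjured array, 61.3 to 68.1 at 7 dpi and 55.0 to 70.8 at 21 dpi. No spot of these 5 probes exceeded the detection level on any array, as the plot of spot intensities shows. For these probes the array gives only that their signal was not above the empty spots, and a newt miRNA that differs from a target could be missed. The hsa-miR-10a target lies at an edit distance of 3 from that of hsa-miR-100, whose probe was detected on every array.

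The 21 dpi array was the brightest and the 7 dpi array the dimmest. Over the 169 probes detected on all 3 arrays, the median signal above the empty spots was 411 on the uninjured array, 148 at 7 dpi and 553 at 21 dpi. Intensities were therefore background corrected and quantile normalized before arrays were compared, while the spot readings given below are intensities as scanned, before normalization. Of 10 probes listed for striated muscle miRNAs 9 were detected on at least 1 array (hsa-miR-208a was not), and none of 5 neural probes was. The striated muscle list matched exact names and so left out some related probes. The 9 detected probes on the list had a median normalized log2 difference of −0.15 at 7 dpi, with 0 called higher or lower. Among those left out, the difference was −1.15 for hsa-miR-499-5p, −2.22 for xla-miR-1b and −0.83 for xtr-miR-1a. For dre-miR-133c it was −0.60, for xla-miR-133d 0.10 and for xtr-miR-133c 0.15. Leukocyte miRNA probes were detected in 7 of 9 cases. By the rule given next, 3 of them were called higher at 7 dpi, against 22 of all 255 probes tested. The 3 were hsa-miR-155 (1.51), xtr-miR-155 (1.02) and hsa-miR-223 (1.48). The other detected ones were xtr-miR-150 (0.75), hsa-miR-150 (0.18), xla-miR-223 (0.09) and hsa-miR-142-3p (−0.06, detected at 21 dpi only). The summed signal of the leukocyte probes above the empty spots was 281, 447 and 901 on the uninjured, 7 dpi and 21 dpi arrays, before normalization. After normalization the median log2 difference of the 7 detected was 0.75 at 7 dpi and 0.47 at 21 dpi against the uninjured sample. From 7 to 21 dpi it was −0.27. Both probes of the liver miRNA miR-122 were detected at 7 dpi only. The part of other cells in the values below was not tested.

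A difference was called where it was at least 2-fold, the probe was detected on 1 or both of the arrays compared, and their spots did not overlap. At 7 dpi against the uninjured heart, 12.5% of 255 tested probes were called (22 higher, 10 lower) and 0 of the 6 family probes were, with a median difference of −0.21 in the family and −0.11 over all. At 21 dpi, 3.04% of 230 probes were called (2 higher, 5 lower) and 0 of 6 family probes, with medians of −0.30 and −0.06. Between 21 and 7 dpi, 12.6% of 231 probes were called (9 higher, 20 lower) and 1 of 6 family probes, hsa-miR-125a-5p, with medians of −0.30 and 0.05. The 3 comparisons share arrays. Scaling changed the split over all probes: at 7 dpi it was 67 higher and 7 lower after centring on the shared probes, 23 and 30 after scaling to 5S rRNA, 3 and 113 after scaling to the spike-ins, and 6 and 96 without normalization. With 6 probes, counts of 0 or 1 are near the background.

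**Figure D2:**
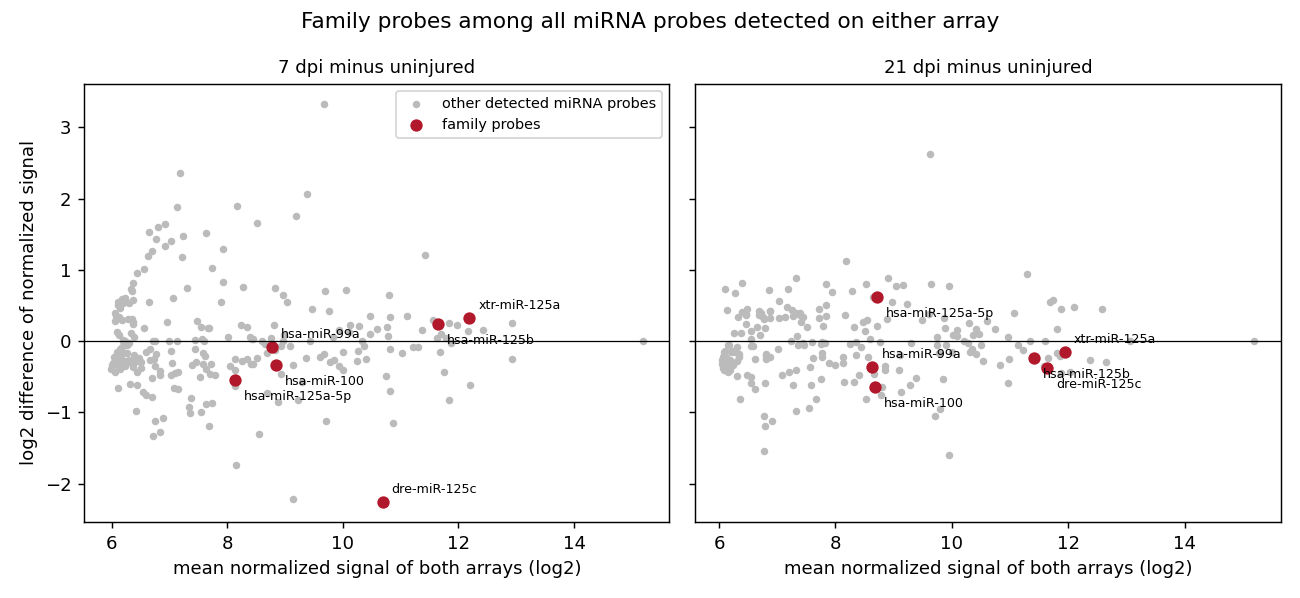
Log2 difference against the mean normalized signal for all miRNA probes detected on either array, at 7 dpi (255 probes) and 21 dpi (230 probes) against the uninjured heart, with the 6 detected family probes in red. At 7 dpi dre-miR-125c (−2.26) is the lowest point of the plot, and at 21 dpi all 6 lie within 1 of 0.

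The probe for miR-125a of frog and zebrafish was bright in all 3 samples. Its 3 spots read 5851, 5919 and 6209 on the uninjured array, 2685, 2551 and 2541 at 7 dpi, and 5094, 6687 and 6030 at 21 dpi. The 7 dpi spots were the lowest of the 9, and the uninjured and 21 dpi spots overlapped. After normalization the levels were 12.02, 12.35 and 11.86 on the log2 scale, so the 7 dpi sample was 0.33 ± 0.04 above the uninjured one and the 21 dpi sample −0.16 ± 0.12 from it. Without spot position 1 the latter became 0.21.

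The hsa-miR-125b probe, whose target is shared by human, frog and zebrafish, gave like differences. Its spots read 3837, 3941 and 3974 on the uninjured array, 1701, 1751 and 1494 at 7 dpi, and 3659, 4290 and 4158 at 21 dpi. Against the uninjured sample the normalized difference was 0.24 ± 0.07 at 7 dpi, and at 21 dpi it was −0.24 ± 0.07, both with normalized spots that did not overlap between arrays. As scanned, the uninjured and 21 dpi spots overlapped, and without normalization the 21 dpi difference was 0.04. Differences of hsa-miR-125b and xtr-miR-125a differed from each other by little more than the spot error or less in every comparison: hsa-miR-125b minus xtr-miR-125a was −0.09 ± 0.08 at 7 dpi and −0.08 ± 0.14 at 21 dpi, both against the uninjured sample, and 0.01 ± 0.15 between the injured samples. These differences were far below the 2-fold used as a call, and their direction at 7 dpi depended on the scaling. Of 13 other ways of processing that can move a probe's value, 9 put each of the 2 probes higher at 7 dpi than in the uninjured sample and 4 put it lower.

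The dre-miR-125c probe, 1 base from hsa-miR-125b, behaved otherwise at 7 dpi and did so in 2 of its 3 spots. The spots read 4167, 4839 and 4983 on the uninjured array, and on the 21 dpi array they read 4632, 4409 and 3899. At 7 dpi they read 211, 147 and 2010. The first pair of 7 dpi spots lay far below the other 7 spots of this probe, and the third lay nearer to them.

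Averaged over spots, the normalized level of dre-miR-125c was 11.82 in the uninjured sample, 9.56 at 7 dpi and 11.44 at 21 dpi. The difference at 7 dpi was −2.26 ± 1.21, the lowest of the 255 probes detected on either array, and the difference from 7 to 21 dpi was 1.89 ± 1.21, the highest of 231. Neither was called, because the spots overlapped: the third 7 dpi spot, at 11.94 after normalization, lay above the uninjured ones (11.66 to 11.92). At 21 dpi the probe was −0.37 ± 0.11 from the uninjured heart.

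Spot by spot and before normalization, dre-miR-125c at 7 dpi was 29.5-fold and 63.1-fold below the uninjured spots at positions 1 and 2, but 2.54-fold below at position 3. These are log2 ratios of −4.88, −5.98 and −1.34 above the empty spots, against a median of −1.43 for the 169 shared probes. The third spot thus followed the array as a whole, at 0.09 above its median ratio, and the first and second lay −3.45 and −4.55 from it. No neighbouring spot was as low. Shared miRNA probes within 3 rows and columns had median log2 ratios of −1.38 (3 spots, lowest −3.03) at position 1 and −1.49 (3 spots, lowest −1.56) at position 2.

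Few probes of that array had spots that differed as much. The brightest dre-miR-125c spot was 25.6 times the dimmest at 7 dpi, the fourth largest ratio among 220 detected probes, whose median was 1.23 and of which 15 (6.82%) reached 4. On the uninjured and 21 dpi arrays the same probe gave 1.20 and 1.19. The pixel standard deviation was 15.8% and 16.4% of the intensity in the dim 7 dpi spots and 14.2% in the bright one. Over the 7 dpi spots of the shared probes the median was 10.4% and the 90th percentile 15.6%. The dim spots thus lay just above that percentile and the bright spot below it. Leaving out position 3 on all arrays gave −3.64 and a call of lower at 7 dpi, while leaving out position 1 gave −1.91 and position 2 −1.44, neither called. The processed values deposited by the authors were 3343, 260 and 3023 for the uninjured, 7 dpi and 21 dpi samples, so the low 7 dpi value stands in the authors' table as well. Those values come from the same arrays and are not a separate measurement.

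**Figure D3:**
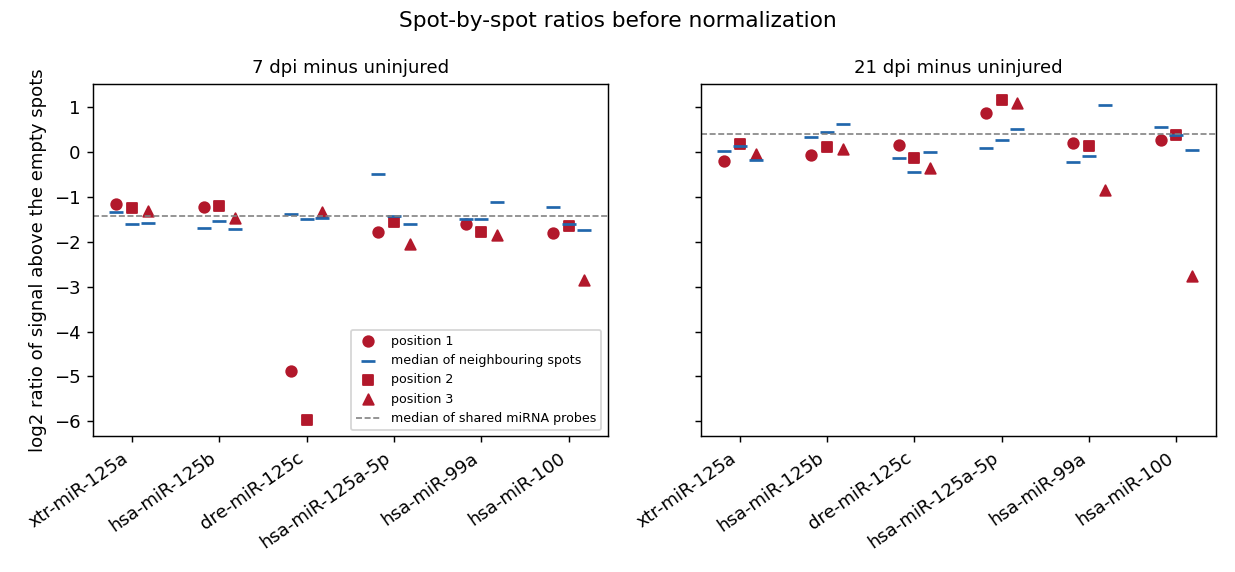
Log2 ratio of the signal above the empty spots for each of the 3 spot positions of the 6 detected probes, at 7 dpi and 21 dpi against the uninjured array and before normalization; blue bars give the median of neighbouring spots and the dashed line the median of the 169 shared probes. Positions 1 and 2 of dre-miR-125c at 7 dpi (−4.88 and −5.98) and position 3 of hsa-miR-100 at 21 dpi (−2.77) lie far below the median of their neighbours.

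The human form of miR-125a gave the 1 call among the family probes, higher at 21 than at 7 dpi. The hsa-miR-125a-5p spots read 384, 382 and 401 on the uninjured array, 164, 179 and 152 at 7 dpi, and 652, 779 and 790 at 21 dpi, with no overlap between any pair of arrays. Normalized levels were 8.40, 7.85 and 9.02. Its difference from the uninjured sample was −0.55 ± 0.08 at 7 dpi, and 0.62 ± 0.09 at 21 dpi. The 7 dpi value ranged from −1.53 with spike-in scaling to −0.12 after centring on the shared probes, and the 21 dpi value became −0.61 with spike-in scaling, the 1 alternative of 13 that put it below 0. The 21 dpi sample was 1.17 ± 0.11 above the 7 dpi sample, a 2.24-fold difference and the sixth highest of 231 probes.

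The hsa-miR-125a-5p and xtr-miR-125a probes, with the same seed and targets at an edit distance of 2, did not change alike. From 7 to 21 dpi the difference of hsa-miR-125a-5p exceeded that of xtr-miR-125a by 1.65 ± 0.16, and it exceeded that of hsa-miR-125b by 1.64 ± 0.15. The size of this gap depended on the processing. For hsa-miR-125a-5p, xtr-miR-125a and hsa-miR-125b the differences were 1.17, −0.48 and −0.48 after quantile normalization. They lay closer together after centring on the shared probes (0.71, −0.34 and −0.23) and in the authors' values (0.90, −0.30 and −0.23). Before normalization the hsa-miR-125a-5p spots at 21 dpi were 1.84-, 2.26- and 2.16-fold above the uninjured ones, log2 ratios of 0.88, 1.17 and 1.11 against a shared median of 0.42. Its 7 dpi spots stood only 80.8 to 108 above the empty spots. The direction from 7 to 21 dpi held under all 13 alternatives (0.71 to 2.24), but the 2-fold call was lost under 5 of them: centring on the shared probes (0.71), cyclic loess (0.89), spike-in scaling (0.92), the authors' values (0.90) and leaving out spot position 3 (0.90). Smooth muscle miRNA probes were among others that rose over this step. All 5 probes of miR-143 and miR-145 were higher at 21 than at 7 dpi (median 0.66). Of all 231 tested probes, 112 (48.5%) were lower at 21 dpi. The hsa-miR-145 probe had −0.67 ± 0.09 at 7 dpi, 0.45 ± 0.10 at 21 dpi and 1.12 ± 0.11 from 7 to 21 dpi, the last called higher. For xtr-miR-145 these were −0.44 ± 0.06, −0.05 ± 0.50 and 0.39 ± 0.50. Probes of other names rose at least as much as hsa-miR-125a-5p: hsa-miR-499-5p (1.72), xtr-miR-16b (1.40), xla-miR-1b (1.18) and hsa-miR-92a (1.17). Before normalization the summed signal of the smooth muscle probes above the empty spots was 378, 111 and 813 on the uninjured, 7 dpi and 21 dpi arrays. The part of smooth muscle in the result was not tested.

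In the miR-99 and miR-100 family, the 2 detected probes stayed within 2-fold of the uninjured heart after quantile normalization. The hsa-miR-99a spots read 552, 582 and 642 on the uninjured array, 230, 221 and 232 at 7 dpi, and 626, 634 and 394 at 21 dpi. Against the uninjured sample the difference was −0.08 ± 0.07 at 7 dpi, with normalized spots that overlapped, and −0.36 ± 0.24 at 21 dpi. All 13 alternatives put both below 0. At 7 dpi they ranged from −1.65 with spike-in scaling to −0.07 without spot position 2. At 21 dpi the difference was −0.13 without spot position 3, the dim one.

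The hsa-miR-100 spots read 715, 703 and 727 on the uninjured array, 257, 275 and 163 at 7 dpi, and 855, 901 and 168 at 21 dpi. The third spot was the lowest on both injured arrays. The difference from the uninjured sample was −0.33 ± 0.25 at 7 dpi and −0.65 ± 0.79 at 21 dpi, the latter with overlapping spots. Without position 3 these became −0.07 and 0.05, so the size of both rested largely on that position. At 7 dpi all 13 alternatives stayed below 0 (−1.95 to −0.07). The value nearest 0 was the alternative without position 3. In 2 others the median spot was taken, which was position 1 on both arrays. They gave −0.08 (median of spots) and −0.33 (ratio of median spots above the empty spots, less the shared median). The alternatives that average over spots with position 3 kept in cannot show whether the direction rests on it. Before normalization the 7 dpi ratios at positions 1 and 2 lay −0.38 and −0.21 from the shared median. At 21 dpi 2 of the 13 alternatives were above 0.

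At position 3 the log2 ratio of hsa-miR-100 at 21 dpi was −2.77, below all 9 neighbouring spots of shared probes (median 0.05, lowest −2.04). At positions 1 and 2 it was 0.28 and 0.39, near the shared median of 0.42. The ratio of the brightest to the dimmest hsa-miR-100 spot at 21 dpi, 8.56, ranked ninth of 180 detected probes, of which 17 (9.44%) reached 4. The difference of hsa-miR-100 minus that of hsa-miR-99a, which targets a sequence 1 base apart, was −0.25 ± 0.26 at 7 dpi and −0.29 ± 0.83 at 21 dpi, within the spot error.

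**Figure D4:**
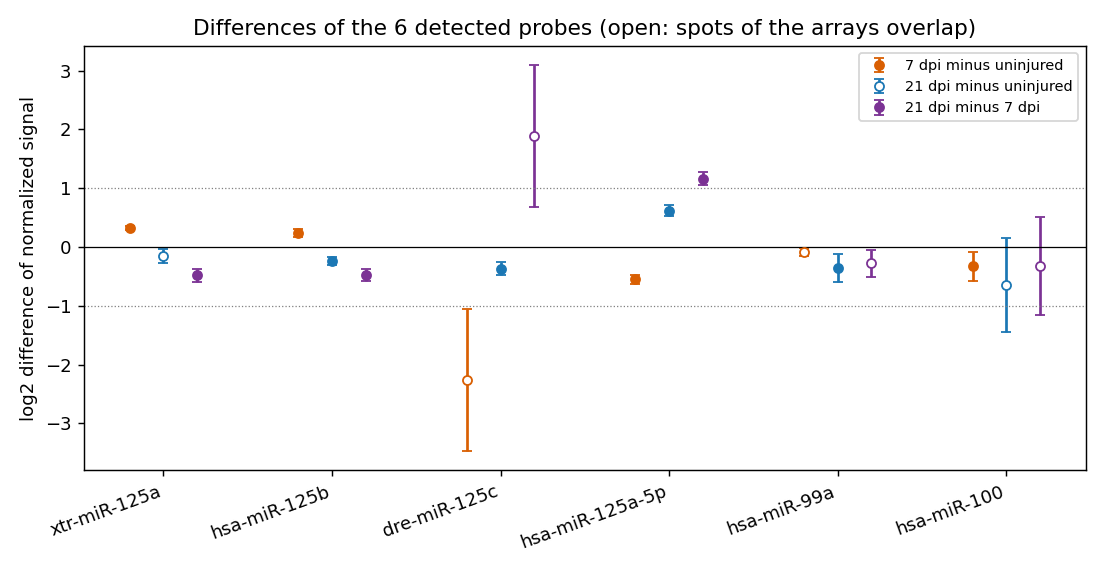
Log2 difference of the normalized signal for the 6 detected probes in the 3 comparisons, with the standard error over spots; filled points have spots that do not overlap between the arrays and the dotted lines mark 2-fold. The hsa-miR-125a-5p probe at 21 dpi minus 7 dpi (1.17) is the filled point beyond 2-fold, and dre-miR-125c has the widest errors (1.21).

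Of the let-7 miRNAs listed as partners on shared primary transcripts in vertebrates (let-7a, let-7c and let-7e, growth-restraining miRNAs in many tissues), all 5 probes were detected on every array. At 7 dpi 1 of them was called lower and none higher: hsa-let-7e was −1.31 ± 0.15 from the uninjured heart and was 1.12 ± 0.06 higher at 21 than at 7 dpi, the latter also called. The call at 7 dpi was kept under all 13 alternatives (−2.52 to −1.10), while that from 7 to 21 dpi was lost under 7 of them (0.69 to 1.00). The xtr-let-7e probe had −0.70 ± 0.13 and 0.64 ± 0.12 in the same comparisons, and dre-let-7e −0.33 ± 0.10 and −0.07 ± 0.09. In the human genome let-7e lies beside miR-99b and miR-125a. In these data hsa-let-7e and hsa-miR-125a-5p were both lowest at 7 dpi, hsa-miR-99b was not detected, and xtr-miR-125a was highest at 7 dpi (lower there than in the uninjured heart under 4 of the 13 alternatives).

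The let-7a and let-7c genes lie beside miR-99a, miR-100 and miR-125b in vertebrates. The hsa-let-7a probe had 0.25 ± 0.07 at 7 dpi (below 0 under 5 of the 13 alternatives) and −0.29 ± 0.67 at 21 dpi, and hsa-let-7c had −0.15 ± 0.08 and −0.34 ± 0.10. The 21 dpi value of hsa-let-7a depended on its spots and on the scaling: it was 0.31 without spot position 3 and with the median of spots, but −1.19 without position 1 and −1.27 after centring on the shared probes. No member of the let-7 list was called at 21 dpi against the uninjured heart.

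Other products of the family genes were near the empty spots. Of 12 probes for opposite strands and further miR-10 names, hsa-miR-99b* was detected, on the uninjured array alone and 12.8 above the empty spots. Of 9 probes for miR-196 and miR-615, which like miR-10 lie in the Hox clusters, hsa-miR-615-5p was detected on the uninjured and 7 dpi arrays, 53.5 and 26.9 above the empty spots, and no miR-196 probe was detected.

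By the distance between the pairs of differences at 7 and 21 dpi, the probes of other names nearest to the median of the 6 family probes (−0.21 and −0.30) were hsa-miR-126, an endothelial miRNA, at 0.06, xtr-let-7i at 0.06, hsa-let-7c at 0.07, hsa-miR-93 at 0.13 and dre-miR-19c at 0.14. The search covered 163 probes and rests on 3 arrays.

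**Figure D5:**
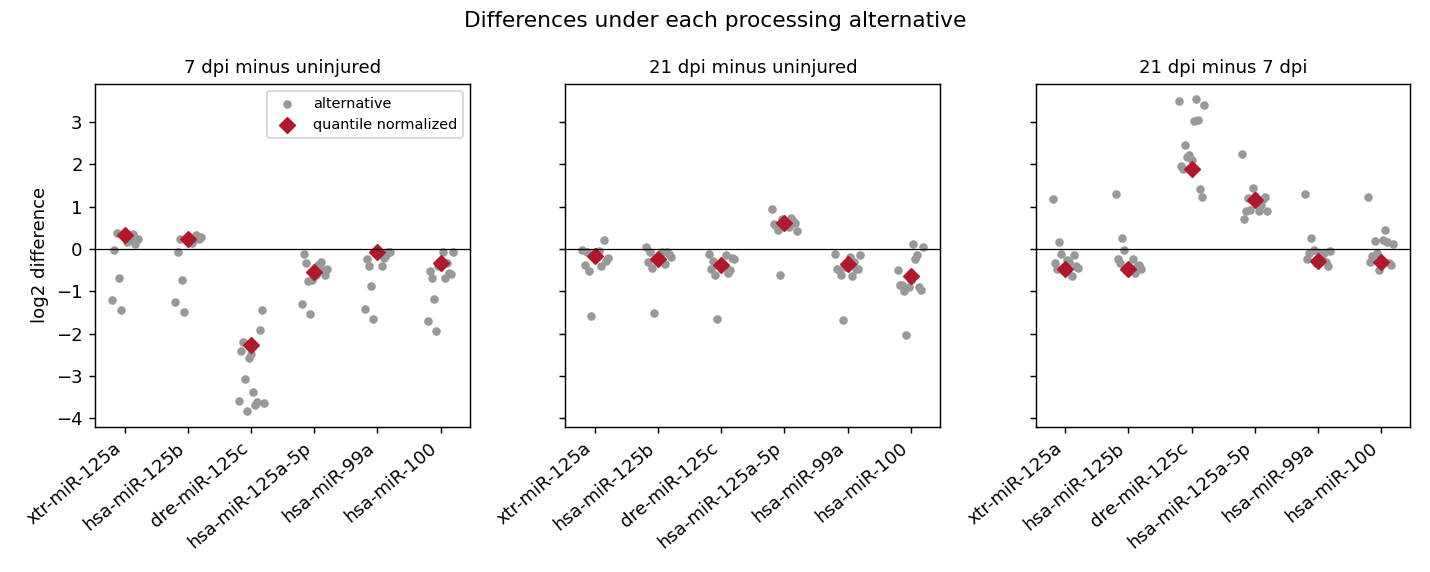
Log2 differences of the 6 detected probes under quantile normalization (red diamonds) and under 13 alternatives (grey points) for the 3 comparisons. Values of dre-miR-125c at 7 dpi stay between −3.83 and −1.44 and those of hsa-miR-125a-5p at 21 dpi minus 7 dpi between 0.71 and 2.24, while xtr-miR-125a and hsa-miR-125b at 7 dpi fall on both sides of 0. Every dre-miR-125c value at 7 dpi includes a dim spot of that probe.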

How the data were processed

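Probe sequences for human, zebrafish and frog miRNAs were hybridized with newt heart RNA tagged for Cy3. The deposited spot intensity is linear, per the file headers, without a background column. Each file holds 1 channel of 1 sample, although the design text speaks of paired samples on arrays, and was treated as 1-colour. Each array has 5022 spots, 4095 of them 3 spots of 1365 miRNA probes. A second table of the authors holds processed intensities, 1 value for each probe. Neither the image software nor the method behind that table is stated in the labels or headers, and its values served as an alternative.

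Intensities were corrected with normexp (offset 50, all spots, foreground alone because no background was given) in limma 3.58.1 under R 4.3.3, put on the log2 scale, averaged over spots, and quantile normalized across arrays. The offset compresses differences of dim probes. Probes of several species were kept apart. A call needed detection on 1 of the 2 arrays, a log2 difference of at least 1 and spots that did not overlap. The number of arrays limits the precision.

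Every member is named. Members, lists and tests were chosen with earlier results of these data known. The lists were let-7 partners, other strands, Hox-cluster miRNAs and cell markers. Of the marker lists not counted above, 2 of 2 endothelial, 2 of 3 erythroid and 4 of 8 epithelial probes were detected. The likeness rule took the 5 nearest probes detected on all arrays. Calls were checked on simulated data before use. There the rule missed many simulated decreases at 7 dpi, and more of them than of simulated increases. A count of 0 probes called lower therefore does not exclude a decrease. Alternatives covered normalization, background, offset, detection, threshold, spot summary and the authors' values.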

Additional observations from a re-analysis of the deposited data

Results flagged for a closer look

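The hsa-miR-125a-5p and hsa-miR-125b probes lay on opposite sides of the uninjured heart at the 2 times, with normalized spots that did not overlap between arrays at either. As scanned, the hsa-miR-125b spots of the uninjured and 21 dpi arrays overlapped. The log2 difference of hsa-miR-125a-5p was −0.55 at 7 dpi and 0.62 at 21 dpi. That of hsa-miR-125b was 0.24 at 7 dpi and −0.24 at 21 dpi. These directions turned with the scaling: hsa-miR-125b at 7 dpi was below 0 under 4 of 13 alternatives (−0.08 after centring on the shared probes, with hsa-miR-125a-5p at −0.12), and hsa-miR-125a-5p at 21 dpi was −0.61 with spike-in scaling. With 1 sample per time, the difference between the times was not tested, and both comparisons share the uninjured array.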

How the results depend on the processing

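Under 16 alternatives, no called value of a family or let-7 probe changed sign. Those that leave out a spot position, and the ratio of median spots above the empty spots less the shared median, were chosen after seeing the data. The dre-miR-125c difference was below 0 at 7 dpi and above 0 from 7 to 21 dpi in all 13 that can move it. Each of these keeps at least 1 of its 2 dim 7 dpi spots, so they cannot show whether the direction rests on those spots. At position 3 alone, before normalization, the ratio lay 0.09 from the shared median at 7 dpi and −0.95 from it from 7 to 21 dpi. The family's median at 7 dpi, −0.21, became −1.36 without normalization, −0.82 with 5S rRNA scaling, −1.59 with spike-in scaling, −0.37 with cyclic loess, −0.39 in the authors' values, and −0.34 and −0.072 without spot positions 2 and 3. The median at 21 dpi, −0.30, became −0.066 without normalization, −0.56 with 5S rRNA and −1.62 with spike-in scaling. The median from 7 to 21 dpi, −0.30, became 1.30 without normalization, 0.27 with 5S rRNA scaling, 0.054 with the median of spots, 0.064 without the detection filter, 0.11 in the authors' values, 0.036 with the ratio of median spots and 0.031 without spot position 3. Family probes called lower at 7 dpi, 0, became 6 without normalization, 2 with 5S rRNA scaling, 6 with spike-in scaling, and 1 in the authors' values and without spot position 3. Those called lower at 21 dpi, 0, became 5 with spike-in scaling, and those called higher there, 0, became 1 at a 1.5-fold threshold. Family probes called higher from 7 to 21 dpi, 1, became 5 without normalization and 0 with centring on shared probes, cyclic loess or spike-in scaling. In the authors' values and without spot position 3 the 1 call was dre-miR-125c (3.54 and 3.40), with hsa-miR-125a-5p at 0.90 in each. The authors' values are 1 for each probe, so calls in them, also at 7 dpi, could not require spots that did not overlap. Scaling to spike-ins put hsa-miR-125a-5p at −0.61 at 21 dpi. The causes were not tested. Over all probes, calls at 21 dpi, 2 higher and 5 lower, became 1 and 163 with spike-in scaling, and calls from 7 to 21 dpi, 9 and 20, became 127 and 4 without normalization. No paired analysis was possible because each group has 1 sample, which also means that no replicate could be left out. Dim signal limits the 7 dpi values, where hsa-miR-125a-5p spots stood 80.8 to 108 above the empty spots.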
